A study of Mus musculus with 8 samples.

Results

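The promoter of Kmt2a (Mll or Mll1, gene ID 214162) held the HELLS peak with the most tags of this chromatin immunoprecipitation series in mouse embryonic fibroblasts. The site was chosen by its HELLS reads, inside a window of 90 kb on mm9 chromosome 9 that begins at 44605000. It is 1 of 5962 HELLS regions that result when overlapping HELLS peaks of both genotypes are merged, and it spans 1250 bp from 44688692 to 44689941. The window is given as that of Kmt2a and no mm9 annotation was used, so exons and introns were not assigned. It held 8 of the 43575 peaks in the authors' 6 lists.

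The cells came from E13.5 embryos that were either wild type or E2f3-/-. The E2F3, HELLS and H3K27me3 antibodies and IgG were each used once per genotype, which gave 8 libraries. All groups were fibroblasts cultured in serum, and how many embryos or cultures stood behind a library is not given in the sources used here. With 1 library per group there was no replicate check: every difference below compares 2 libraries, no p-value is given, and the exact 95% intervals cover counting error only. Both IgG files held identical reads and were used as 1 background library, so a difference in background between the genotypes could not be measured.

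Kmt2a encodes MLL1, a histone methyltransferase of the trithorax group that methylates H3K4 at promoters and keeps developmental genes such as the Hox genes active. Trithorax proteins act in opposition to the Polycomb machinery, whose mark is H3K27me3. E2F3 belongs to the E2F transcription factors, known for driving cell-cycle genes, and HELLS (also Lsh) is an SNF2-type helicase that remodels nucleosomes and is known for its part in DNA methylation. The study asked, as its title states, whether HELLS acts in transcription that depends on E2F3, and the Kmt2a promoter is a place where both antibodies gave a peak in wild-type cells.

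RefSeq gives a Kmt2a promoter window of 300 bp on GRCm38.p6, from 250 bp before to 50 bp after a transcript start, and its 187 bp outside every annotated Kmt2a transcript are shown because the promoter of this gene is where the HELLS peak was found. The build differs from that of the reads, so the letters were not placed under the peak. Capitals mark the word GGGCGG, which the SP1 family reads, and none of the other words searched occurred in the stretch.
Kmt2a, GRCm38.p6 chr9:44881353-44881539, minus strand: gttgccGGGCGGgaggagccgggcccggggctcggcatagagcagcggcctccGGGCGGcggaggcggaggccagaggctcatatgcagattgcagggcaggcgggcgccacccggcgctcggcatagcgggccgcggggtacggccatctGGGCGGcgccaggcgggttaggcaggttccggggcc

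The stretch is a CpG-rich sequence with no TATA word. The whole 300 bp window held 36 CpG and 75.7% G or C, against medians of 7 CpG and 52.7% over 32851 promoter windows of the same length. GGGCGG occurred 5 times in total over both strands, and 35.7% of all windows held it at least once. No match was found on either strand for the E2F words TTTGGCGC, TTTCGCGC, TTTCCCGC or TTTGCCGC, at least 1 of which was present in 2.26% of all windows. Also without a match were CCGGAAG (ETS, in 8.86% of windows), CCAAT (NFY, 37.4%), CGCATGCG (NRF1, 1.87%), AAGATGGCG (YY1, 1.403%) and TATAAA (13.6%). No match says only that these letters are not in this window.

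HELLS reads in the 1250 bp region numbered 280 in wild-type and 398 in E2f3-/- cells, beside 33 IgG reads. The promoter therefore stood first among the 5962 HELLS regions by reads in both HELLS libraries, where the median region held 21 and 26. These values chose the site and are given as a description. In the authors' lists the promoter peak ranked 1 of 2489 by tags in wild-type cells, from 44689005 to 44689913 with 275 tags, a score of 2242.21 and a fold enrichment of 81.17. The next wild-type peak had 110 tags, so the promoter exceeded it 2.50-fold. In E2f3-/- cells it ranked 1 of 4740, with 398 tags, a score of 3092.39 and a fold enrichment of 86.64, and the next peak had 215 tags. By fold enrichment it ranked 2 in that list, behind a peak on chromosome 17 from 28313800 to 28314777 with 139.97. The authors' false discovery rate was 0.00% for the promoter peak in both lists.

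**Figure D1:**
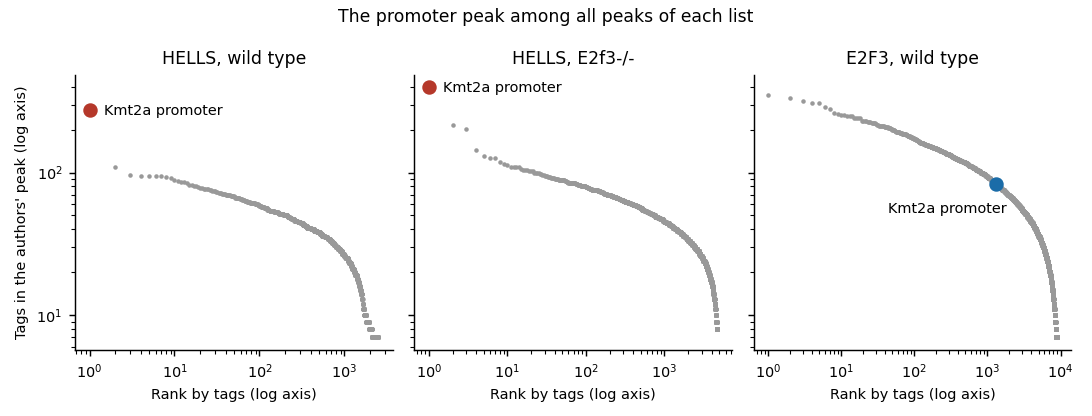
Tags in each peak of the authors' lists (vertical, log axis) against its rank by tags (horizontal, log axis) for HELLS in wild-type and E2f3-/- cells and for E2F3 in wild-type cells, with the Kmt2a promoter peak as the large point. The promoter stands apart from the other HELLS peaks at 275 and 398 tags and lies within the run of E2F3 peaks at 83 tags and rank 1326.

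The HELLS signal was narrow. Both HELLS summits fell within 3 bp of each other, at 44689500 in wild-type and 44689503 in E2f3-/- cells. Within 100 bp of the wild-type summit lay 79.6% of the region's wild-type HELLS reads (74.4 to 84.2) and 73.1% of the E2f3-/- ones (68.5 to 77.4). Every read was first shifted by 60 bp towards the middle of its fragment. The middle 50% of shifted reads covered 91.2 bp and 103 bp. Plus-strand read starts lay to the left and minus-strand starts to the right of the summit, with medians 109 bp apart in wild-type and 122 bp apart in E2f3-/- cells. In this assay the 2 ends of fragments around a bound position are read on opposite strands and are offset in this way.

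The deposited reads are nearly free of duplicates, so that a position and strand can hold 1 distinct read at most. Close to the promoter summit this limit was nearly reached in E2f3-/- cells. In the densest 100 bp, 86 plus-strand and 73 minus-strand positions were used in wild-type cells, and 97 and 98 in E2f3-/- cells. Over all 5962 HELLS regions the median of the highest use in 100 bp on either strand was 6 positions in wild-type and 7 in E2f3-/- cells, and the region after the promoter reached 34 and 72. At the promoter few positions in the densest 100 bp were thus left unused in E2f3-/- cells, and more in wild-type cells. An effect of this on the ratio of HELLS reads between the genotypes was not tested. Whether any fragments beyond 1 per position and strand were separate ones or amplified copies cannot be told apart in the deposited reads. In the 4 other ChIP libraries the highest use at the promoter was 10 positions.

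**Figure D2:**
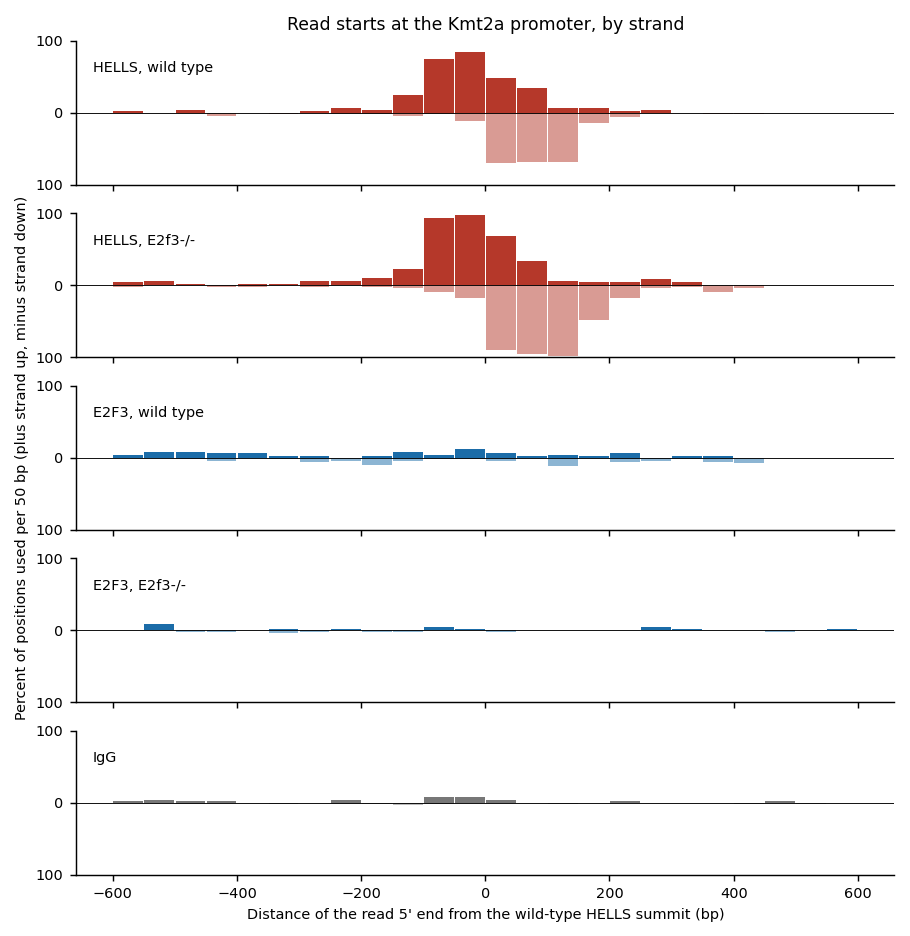
Percent of positions used by a read 5' end in each 50 bp, plus strand upwards and minus strand downwards, against the distance from the wild-type HELLS summit in bp, for HELLS and E2F3 in both genotypes and for IgG. HELLS fills up to 84% of a wild-type and 98% of an E2f3-/- window on 1 strand, while E2F3 and IgG starts are sparse and spread over the region.

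HELLS reads at the promoter were not fewer in cells without E2f3. The ratio of E2f3-/- to wild-type reads was 1.41 (1.21 to 1.65), with each library scaled by the reads it had elsewhere than in the 27092 merged peak regions. With the median change of the 1245 HELLS regions found in both lists set to 0 on the log2 scale, the ratio was 1.25 (1.07 to 1.46). That scaling takes out a change of log2 0.181 common to those regions. A region was called changed when the ratio was at least 2-fold and its interval did not reach 1, which 5.20% of HELLS regions passed as higher, and the promoter did not pass. Of the HELLS regions 67.9% had a lower ratio than the promoter. In the 500 bp around the summit the ratio was 1.37 (1.17 to 1.61) from 266 and 367 reads. In the 750 bp of the region outside it 14 and 31 reads gave 2.20 (1.14 to 4.47), past both criteria for higher. The bounds of the region are those of the E2f3-/- HELLS peak, while the wild-type peak spans only 44689005 to 44689913. E2f3-/- HELLS reads thus set this outer part, and its ratio is given as a description. If every fragment is taken as a separate one, estimating the reads from the share of positions left unused gave 478 and 991 reads and a ratio of 2.06. This alternative was added after the data were seen. It has no interval, so the criteria for a call could not be applied. The estimate is sensitive where few positions are left, as in windows of 50 bp with up to 98% in use in E2f3-/- cells.

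E2F3 gave a lower and wider signal at the same promoter. The authors' wild-type list has an E2F3 peak from 44688725 to 44689943 with 83 tags, which ranked 1326 of 8889 by tags, 2201 by score and 6966 by fold enrichment (8.81, median of the list 12.95). Its summit lay 34 bp from that of HELLS. Of the wild-type E2F3 reads in the region, 27.4% (18.2 to 38.2) fell within 100 bp of the HELLS summit, and the middle 50% covered 467 bp. The IgG reads were spread alike, with 33.3% (18.0 to 51.8) within the same distance and a middle 50% of 500 bp, and the summit used as the centre was that of the HELLS reads. By 250 bp bins from 44689001 onwards, wild-type E2F3 reads numbered 25, 16, 25 and 13, and HELLS reads 6, 94, 172 and 5. The E2F3 reads therefore had no single high bin, whereas HELLS reads were gathered in the middle pair.

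E2F3-antibody reads at the promoter were fewer without E2f3. The region held 84 wild-type and 24 E2f3-/- reads, a ratio of 0.297 (0.180 to 0.472), and in the 500 bp around the HELLS summit 41 and 7 reads gave 0.177 (0.0672 to 0.399). The authors listed no E2F3 peak there in E2f3-/- cells. This call is a common one: 66.8% of E2F3 regions were called lower, and 49.0% of HELLS regions were lower in E2F3 reads by the same criteria. With a scaling that sets the median change of the 2467 E2F3 regions found in both lists to 0 on the log2 scale, the ratio was 0.663 (0.403 to 1.05) and the call was lost. That scaling takes out a change of log2 -1.16 common to those regions.

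The HELLS ratio at the promoter was 4.74 times the E2F3 ratio (exact interval of the ratio of ratios 2.90 to 8.02). HELLS reads chose the site and set its bounds, so this gap is given as a description. A gap in this direction was common: its median over all 5962 HELLS regions was 2.60 times, and 81.4% of them had a smaller gap than the promoter. With both antibodies scaled by the regions found in both lists, the gap at the promoter was 1.87 times (1.14 to 3.17), a value computed after the data were seen. Relative to IgG, wild-type reads of the E2F3 antibody were 4.19-fold (2.77 to 6.47) and E2f3-/- reads 1.24-fold (0.703 to 2.17), the latter not distinguishable from IgG at this depth. HELLS was 11.7-fold over IgG (8.17 to 17.4) in wild-type and 16.6-fold (11.6 to 24.4) in E2f3-/- cells, and 21.7-fold and 29.7-fold in the 500 bp around the summit. By enrichment over IgG the promoter was not the first HELLS region: it ranked 171 of 5962 in wild-type and 36 in E2f3-/- cells. These values average the region, while the authors' fold enrichment sets tags against their local expectation, so the scales differ.

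**Figure D3:**
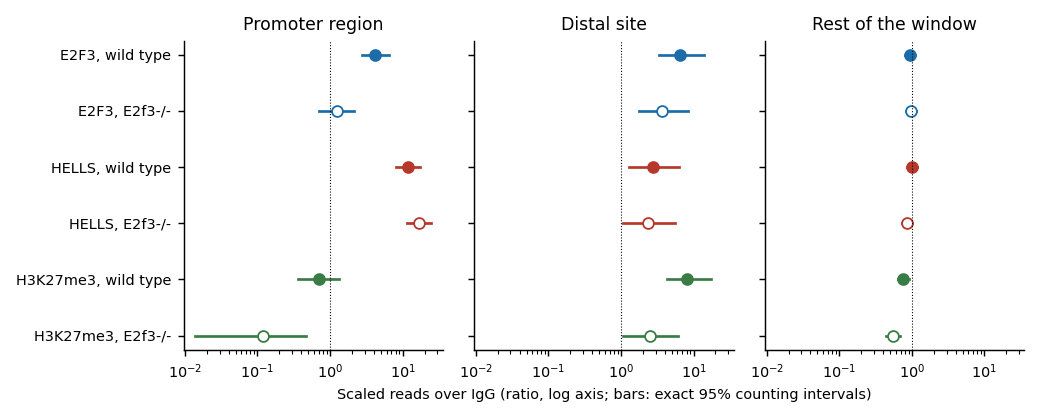
Scaled reads over IgG (log axis) with exact 95% counting intervals for the 6 ChIP libraries at the promoter region, the distal site and the window outside both sites, with filled points for wild type and open points for E2f3-/-. HELLS stands highest at the promoter with 11.7 and 16.6, and the window outside both sites lies between 0.546 and 1.00. H3K27me3 is above IgG at the distal site and at neither of the other places. The distal site is drawn over its E2F3 part.

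The promoter was itself a place of raised IgG. The 33 IgG reads were 26.4 per kb, against 2.66 per kb outside peaks. By IgG reads per region, not corrected for length, the promoter ranked 240 of 5962 HELLS regions. At 1250 bp it is longer than the median HELLS peak, of 518 bp in the wild-type and 702.5 bp in the E2f3-/- list. In the 400 bp around the summit 10 IgG reads were on the plus and 5 on the minus strand, and the plus-strand starts over the region lay to the right of the minus-strand ones, with an offset of -143.5 bp against 109 and 122 bp for HELLS. This offset rests on 20 plus-strand and 12 minus-strand IgG reads. The densest 100 bp of IgG plus-strand starts, from 44689430 to 44689529 with 9 positions in use, overlapped that of wild-type HELLS, from 44689411 to 44689510. IgG reads were 34 per kb in the 500 bp around the summit and 21.3 per kb in the region outside it. How much of the ChIP counts at the promoter comes with this raised background was not tested. After scaling, the E2F3 reads of E2f3-/- cells were within counting error of it and the HELLS reads of both genotypes were above it.

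H3K27me3, the Polycomb mark, had no peak at the promoter in either list. The region held 16 wild-type and 2 E2f3-/- reads. Relative to IgG this was 0.714-fold (0.367 to 1.33) in wild-type and 0.120-fold (0.0139 to 0.469) in E2f3-/- cells, so no enrichment over IgG was detectable in either. The ratio of 0.168 (0.0187 to 0.714) rests on these few reads, and 49.7% of HELLS regions were called lower in H3K27me3 reads by the same criteria. With the median change of 4049 H3K27me3 regions found in both lists set to 0 on the log2 scale, the ratio was 0.339 (0.0378 to 1.44) and the call was lost.

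Across the 90 kb window, nearly all bins above IgG lay in 2 places. In 360 bins of 250 bp, those at least 2-fold over IgG with an interval above 1 numbered 9 for E2F3 in wild-type and 1 in E2f3-/- cells, 3 and 3 for HELLS, and 6 and 2 for H3K27me3. Over all 496304 bins of chromosome 9 the shares that passed were 0.330% and 0.132% for E2F3, 0.101% and 0.117% for HELLS, and 0.574% and 0.356% for H3K27me3. For E2F3, 4 of the 9 wild-type bins were at the promoter, 3 at the distal site described next and 2 elsewhere, and the E2f3-/- bin was at the distal site. For HELLS, 2 of the 3 wild-type bins and all 3 E2f3-/- bins were at the promoter. For H3K27me3, 5 of the 6 wild-type bins and both E2f3-/- bins were at the distal site.

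**Figure D4:**
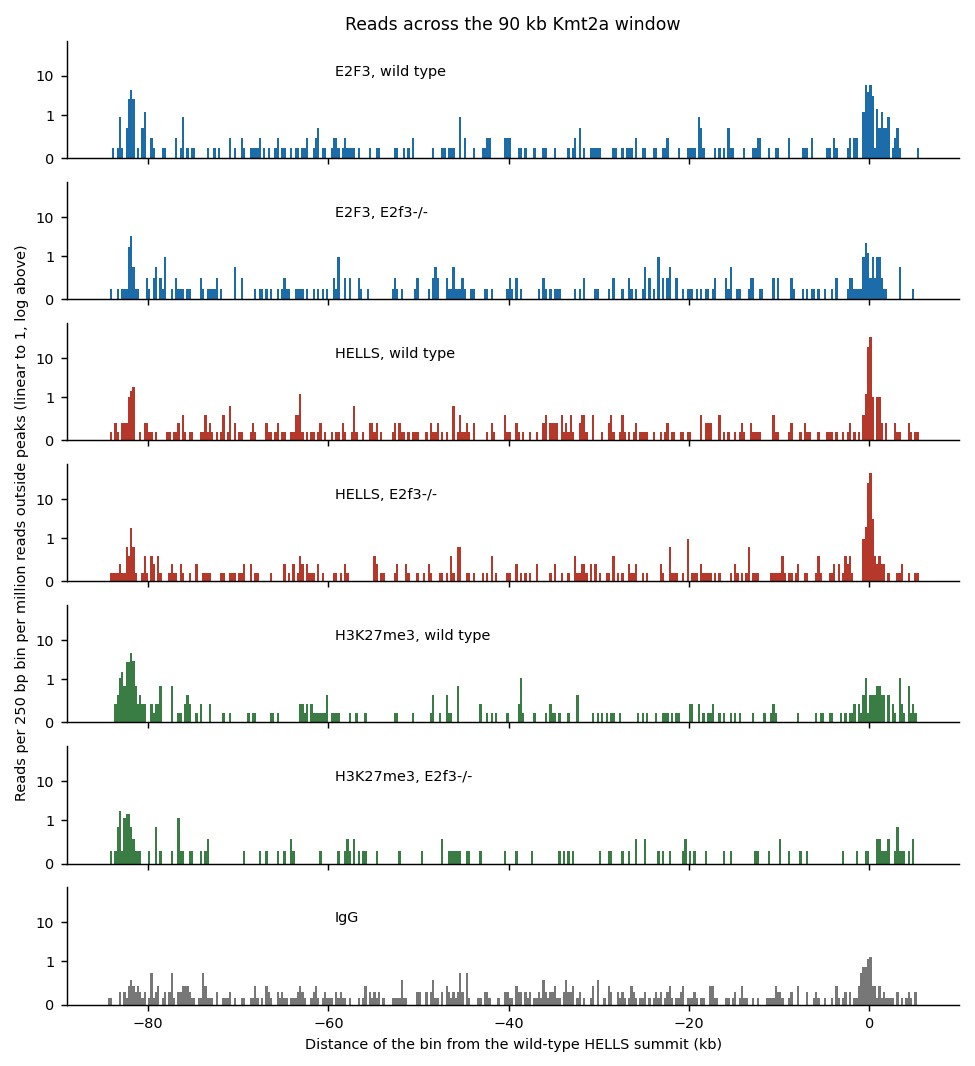
Reads per 250 bp bin, scaled to the reads of the library outside peaks (axis linear to 1, log above), for the 7 libraries, against the distance of the bin from the wild-type HELLS summit in kb. HELLS has its highest bins at the promoter, E2F3 is raised at the promoter and at the distal site about 82 kb away, and H3K27me3 is raised at the distal site.

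The distal site lay 81.9 kb from the promoter summit, between 44606065 and 44608144, and carried E2F3 and H3K27me3 together. In GRCm38.p6 Kmt2a is 78.0 kb long and is followed by Ttc36 and Tmem25. Which gene the site belongs to on mm9 was not established. The authors listed E2F3 peaks there in both genotypes, with 44 tags in wild-type and 23 in E2f3-/- cells, and H3K27me3 peaks of 66 and 16 tags in wild-type and of 10 tags in E2f3-/- cells. No HELLS peak was listed in the window outside the promoter.

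At the distal site the E2F3 antibody kept reads over IgG without E2f3. Its E2F3 part, from 44607075 to 44607927, held 44 wild-type and 24 E2f3-/- reads beside 11 IgG reads, which was 6.58-fold (3.34 to 14.1) and 3.73-fold (1.76 to 8.43) over IgG. This part was taken from the listed E2F3 peaks, which include a peak called on the E2f3-/- reads themselves. Its reads over IgG thus follow in part from that choice and are given as a description. The promoter region was bounded by HELLS peaks instead. The longer promoter region, of 1250 bp against 853 bp, also held 24 E2f3-/- reads, beside 33 IgG reads, and no peak was listed there. Per kb, E2f3-/- reads were 28.1 in the distal part and 19.2 at the promoter. IgG reads per kb were 12.9 in the distal part and 26.4 at the promoter. In the distal part the ratio of E2f3-/- to wild-type reads was 0.567 (0.330 to 0.953), short of 2-fold. The promoter's ratio was 0.526 times that of the distal site, with an interval from 0.253 to 1.09, so that a difference between the sites was not shown at this depth.

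H3K27me3 exceeded HELLS over IgG at the distal site in wild-type cells, the reverse of the order at the promoter. HELLS reads chose the promoter, while E2F3 and H3K27me3 peaks bounded the distal site and no HELLS peak was listed there. The order follows in part from these choices and is given as a description. In the E2F3 part of the site HELLS reads numbered 22 and 19, with a ratio of 0.858 (0.439 to 1.66). They were 2.77-fold (1.29 to 6.32) and 2.37-fold (1.07 to 5.52) over IgG. H3K27me3 reads in the same part numbered 61 and 14, or 8.17-fold (4.26 to 17.2) and 2.52-fold (1.06 to 6.13) over IgG. Their ratio of 0.308 (0.159 to 0.557) was a call of lower. Of the H3K27me3 regions, each counted over its own bounds, 41.3% were called lower. Over the whole distal site H3K27me3 reads numbered 83 and 30, or 7.64-fold and 3.71-fold over IgG. Their ratio was 0.485 (0.309 to 0.745), also a call of lower. HELLS reads over the whole site numbered 28 and 26, with a ratio of 0.922 (0.519 to 1.63). The site held 2 H3K27me3 regions as the peaks divide it, of which the first has a peak in both lists and the second in the wild-type list alone, so their values describe that division. In the second, between 44606957 and 44608144, the 65 and 17 reads gave a ratio of 0.351 (0.193 to 0.606), and in the first, between 44606065 and 44606935, the 18 and 13 reads gave 0.970 (0.437 to 2.09).

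The other 86.7 kb of the window, outside both sites, held reads at or below the level of IgG. Reads over IgG were between 0.546-fold for H3K27me3 in E2f3-/- cells and 1.00-fold for HELLS in wild-type cells. The ratio of E2f3-/- to wild-type reads was 1.03 (0.858 to 1.25) for E2F3, from 229 and 228 reads, and 0.867 (0.730 to 1.03) for HELLS, from 291 and 254. H3K27me3 reads numbered 209 and 111, a ratio of 0.713 (0.561 to 0.902). With the distal site kept in, the ratios outside the promoter were 0.9498 for E2F3, 0.872 for HELLS and 0.648 for H3K27me3. The promoter's E2F3 ratio was 0.288 times that of the 86.7 kb outside both sites (0.168 to 0.477). Its HELLS ratio was 1.63 times, given as a description since HELLS reads chose the site.

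**Figure D5:**
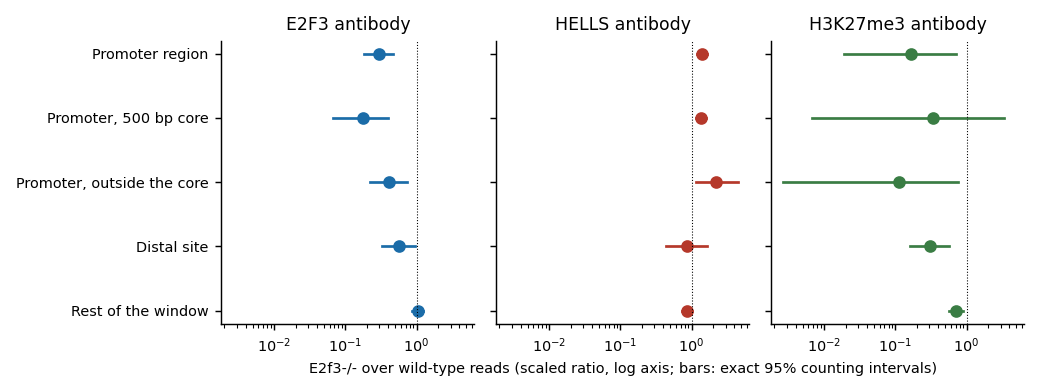
E2f3-/- over wild-type scaled reads (log axis) with exact 95% counting intervals for the 3 antibodies at the promoter, its 500 bp core, the promoter outside the core, the distal site and the window outside both sites. At the promoter E2F3 lies below 1 at 0.297 and HELLS above 1 at 1.41. Outside both sites E2F3 is at 1.03 and HELLS at 0.867. The distal site is drawn over its E2F3 part.

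The HELLS regions nearest to the promoter over the 6 ChIP libraries shared only part of its pattern. Among 2812 HELLS regions with at least 50 HELLS reads in both genotypes together, the Euclidean distance of the 6 log2 enrichments over IgG from those of the promoter was smallest for a region on chromosome 1 from 55144276 to 55145207, at 1.76, against a median of 4.25. It held 111 and 201 HELLS reads in wild-type and E2f3-/- cells, and 129 and 22 E2F3 reads. The next was the region on chromosome 17 from 28313800 to 28314777 (distance 2.62), with 82 and 215 HELLS and 95 and 24 E2F3 reads. The third lay on chromosome 8 from 126544648 to 126545491 (distance 2.68), with 47 and 75 HELLS and 79 and 20 E2F3 reads. Higher HELLS and lower E2F3 reads in the E2f3-/- library, as in these 3, are part of what the distance selects, and 63.6% of all HELLS regions had both directions. In wild-type cells all 3 had more E2F3 than HELLS by log2 enrichment over IgG, unlike the promoter. The E2F3 and HELLS values were 3.01 and 2.54 on chromosome 1, 2.74 and 2.28 on chromosome 17, and 2.75 and 1.75 on chromosome 8. At the promoter they were 2.05 and 3.53.

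The first 2 of these sites were also the next HELLS peaks by tags. After the promoter the E2f3-/- list had the chromosome 17 peak with 215 tags and the chromosome 1 peak with 201. The HELLS ratios of their regions were 2.60 (2.01 to 3.40) and 1.80 (1.42 to 2.29), against 1.41 at the promoter. Peaks taken by tags in the E2f3-/- list tend to higher ratios through that choice, so these ratios are a description. The promoter had the most positions in 100 bp in use, and whether this bears on its ratio was not tested. By tags per 100 bp the promoter led both lists, with 30.3 in wild-type and 31.8 in E2f3-/- cells, and these peaks had 22.0 on chromosome 17 and 21.6 on chromosome 1 in E2f3-/- cells. The other named peaks were wider and less dense. Of the wild-type list they lay on chromosome 13 from 55311376 to 55314169 (96 tags), on chromosome 2 from 167513742 to 167515314 (95 tags) and on chromosome 8 from 129116426 to 129118339 (95 tags), with HELLS ratios of 1.13, 1.18 and 1.16. The E2f3-/- list continued with peaks on chromosome 5 from 43623738 to 43626472 (143 tags, ratio 1.23) and on chromosome 6 from 145197885 to 145199321 (131 tags, ratio 1.72).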

How the data were processed

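Reads were deposited by the authors as aligned positions on mm9, per the submitters' processing notes, and the aligner is not given in the sources used here. Protein-bound DNA of 200 to 300 bp was amplified for 22 PCR cycles and read for 36 nucleotides, per the labels' protocols. Distinct reads numbered from 3799779 to 5640555 in the ChIP libraries and 7219419 in IgG. The authors called peaks per library by MACS 1.4.0beta at a p cutoff of 1.00e-05, per the file headers, which count 3444066 tags in the wild-type control and 3791438 in the E2f3-/- one. The deposited IgG reads are thus not either of these controls alone. The deposited peak tables give tags as counts, the MACS score derived from the p-value, a fold enrichment as a ratio and, in percent, a false discovery rate. The deposited summit heights are an unscaled signal.

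Repeated reads at a position and strand were reduced to 1, and reads were shifted by 60 bp. Ratios carry exact conditional binomial 95% intervals. For log2 values 0.5 was added to counts. Analysis used Python 3.11.15, SciPy 1.17.1 and pandas 2.3.3, and the region calls were tested on simulated data. The member, lists, motifs and named regions (the 4 HELLS peaks after the promoter by tags in each list, and the 3 regions nearest to it) were chosen with earlier results of these data known. A list of other MLL and SET1 complex genes was not analysed here, since it needs an mm9 annotation. Alternatives covered duplicates, scaling, shift, interval, bins, threshold, peak score and ranking value.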

Additional observations from a re-analysis of the deposited data

How the results depend on the processing

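Of 97 recomputed values, 74 stayed within the interval or range of the value reported, 22 moved and 1 reversed. Scaling by regions found in both lists, with their median change set to 0, gave E2F3 ratios of 0.663 at the promoter and 2.12 over the window outside it (distal site included), and turned the H3K27me3 ratio there from 0.648 to 1.31. It removes any change common to those regions. It also moved the share of regions called lower and higher to 15.1% and 6.29% for E2F3, 7.58% and 2.50% for HELLS, and 5.64% and 10.9% for H3K27me3. With peaks of score 100 or more, 0.0179% of E2F3 and 0.733% of H3K27me3 regions were higher, and 66.5% of H3K27me3 and 0.327% of HELLS regions lower. At 1.5-fold, 10.7% of HELLS regions were higher. In the 500 bp around the HELLS summit the E2F3 ratio was 0.177, and enrichment over IgG was 21.7-fold (wild type) and 29.7-fold (E2f3-/-) for HELLS and 0.347-fold for wild-type H3K27me3. Estimating reads from used positions, added after seeing the data like the leaving out of the distal site, gave a HELLS ratio of 2.06 without an interval. The promoter ranked 2201 by score and 6966 by fold enrichment in the wild-type E2F3 list, and 2 by fold enrichment in the E2f3-/- HELLS list. By correlation in place of distance, 1 of the 3 most like regions was kept. No paired analysis was possible because each group had 1 library, and for the same reason no library could be left out. The H3K27me3 ratio at the promoter rests on 16 and 2 reads.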

Other observations

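Repeated lines, which deduplication removed, were few at the Kmt2a promoter: 3 of 283 deposited HELLS reads in wild-type and 6 of 404 in E2f3-/- cells, and 0 in the E2F3, H3K27me3 and IgG libraries. By the authors' unscaled summit heights the promoter ranked 1 for HELLS in both lists, at 173 in wild-type cells (next 72, median 10) and 247 in E2f3-/- cells (next 146, median 14). The E2F3 summit at the promoter had a height of 17, below the list's median of 18.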
